A study of Mus musculus with 2 samples.

Results

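The TAM receptors Tyro3, Axl and Mertk and their ligands Gas6 and Pros1 were followed in single spinal microglia. These are 5 of the 32285 genes of the deposited count tables, taken by gene symbol, and each had a row in the tables of both libraries. UMIs (unique molecular identifiers, each marking 1 captured RNA molecule) were counted in scRNA-Seq libraries of microglia sorted from lumbar spinal cord as CD45lo, CD11b+ and CX3CR1+ cells, 1 library from WT mice and 1 from 4E-BP1 cKO mice. The 4E-BP1 cKO mice carried floxed Eif4ebp1, which encodes a repressor of cap-dependent translation, and a CreERT2 driven by the promoter of the microglial gene Tmem119. The labels call the control WT, and the study's legend gives it as floxed Eif4ebp1 without Cre. The mice were males of 8 to 10 weeks in which 4-OHT, the ligand that switches the Cre on, had been given from P4 to P9, and how many mice each library came from is not stated in the sources used here. The study names Axl among phagocytosis genes whose mRNA was more bound to ribosomes in 4E-BP1 cKO microglia. That came from its TRAP experiment, which captures ribosome-bound mRNA from other mice and was not analysed here. The UMIs here count mRNA whether or not it is bound to ribosomes, which is another measure. The question here was how the mRNA of Axl stood beside that of its family in single cells of each genotype.

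TAM receptors are receptor tyrosine kinases of phagocytes that bind dying cells indirectly. Gas6 and Protein S (the product of Pros1) hold phosphatidylserine on the dying cell with a vitamin K-modified domain and the receptor with the other end. Gas6 activates all TAM receptors, whereas Protein S activates Tyro3 and Mertk but not Axl. Mertk is the TAM receptor of resting microglia and clears apoptotic cells, and Axl is known as the receptor that inflamed and disease-associated microglia induce. Signals from either receptor feed back on interferon and Toll-like receptor responses.

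After removal of barcodes with at most 300 detected genes, at least 5% mitochondrial UMIs or a doublet call, 1143 WT cells with 4791316 UMIs and 434 4E-BP1 cKO cells with 1660668 UMIs remained, and the libraries shared 0 barcodes. The median WT cell held 3060 UMIs and the median 4E-BP1 cKO cell 2703. All of the 10 microglial markers were detected in both libraries, the least frequent in 38.5% of WT and 33.4% of 4E-BP1 cKO cells. At least 3 markers of another cell type were found in 26 WT and 4 4E-BP1 cKO cells. With 1 library per genotype there was no replicate, so that no test between genotypes could be made. Values are given with exact 95% intervals (Poisson for UMI counts, Clopper-Pearson for shares, conditional for ratios), which cover counting error only and not differences between mice, sorts or captures. CPM relate a gene's UMIs to all UMIs of the cells summed.

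Mertk had the most UMIs of the members by far. It lies on chromosome 2 from 128698915 to 128803162 (all positions are of GRCm38, RefSeq) and spans 104 kb. It had 5271 UMIs in WT, equal to 1100.1 CPM (1071 to 1130.2), and 1412 UMIs in 4E-BP1 cKO cells, equal to 850.3 CPM (806 to 896). At least 1 Mertk UMI was found in 84.4% of WT (82.2 to 86.5%) and 79.5% of 4E-BP1 cKO cells (75.4 to 83.2%). Shares of cells depend on depth, so each cell was also thinned to 867 UMIs, the 10th percentile, leaving out 87 WT and 70 4E-BP1 cKO cells with fewer. At this equal depth Mertk was found in 57.4% (54.3 to 60.4%) and 51.1% (45.8 to 56.3%) of cells. The Mertk level was lower in the 4E-BP1 cKO library on each of these measures, although the intervals of the shares overlapped.

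Axl lies on chromosome 7 from 25756500 to 25788924 and was a low-abundance transcript in the same cells. It had 203 UMIs in WT cells, or 42.4 CPM (36.7 to 48.6), and 92 UMIs in 4E-BP1 cKO cells, or 55.4 CPM (44.7 to 67.9). An Axl UMI was found in 11.8% of WT cells (10.0 to 13.8%) and 14.3% of 4E-BP1 cKO cells (11.1 to 17.9%). At equal depth these shares were 4.36% (3.21 to 5.77%) and 4.40% (2.53 to 7.04%), so that the libraries could not be told apart by the share of Axl-positive cells. The highest count in 1 cell was 7 UMIs in the WT and 5 in the 4E-BP1 cKO library.

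Tyro3, the third receptor, was all but undetected. It lies on chromosome 2 from 119797740 to 119818104 and had 0 UMIs in WT cells and 1 UMI in a 4E-BP1 cKO cell. With the limit for a count of 0 set at 3 UMIs, the 0 of 1143 WT cells allows a share of cells with a UMI of up to 0.262%, and a level of up to 0.626 CPM. Tyro3 enters no further comparison, and below a statement on the 4 detected members leaves it out.

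The ligands differed from each other in the same way as the receptors did. Pros1, on chromosome 16 from 62854307 to 62929346, had 1466 UMIs or 306 CPM (291 to 322) in WT cells and 480 UMIs or 289 CPM (264 to 316) in 4E-BP1 cKO cells. It was found in 52.8% (49.9 to 55.8%) and 48.4% (43.6 to 53.2%) of cells, and at equal depth in 22.3% (19.9 to 24.98%) and 21.7% (17.6 to 26.3%). Gas6, on chromosome 8 from 13465374 to 13494535, had 196 WT and 68 4E-BP1 cKO UMIs, equal to 40.9 CPM in each library (35.4 to 47.1 and 31.8 to 51.9). It was found in 13.7% (11.8 to 15.9%) and 14.1% (10.9 to 17.7%) of cells, and at equal depth in 3.31% (2.32 to 4.58%) and 2.75% (1.33 to 4.99%). Gas6 overlaps Tmem255b in the annotation, and that gene had only 2 and 1 UMIs. Both libraries therefore held the same order by UMIs, Mertk, Pros1, Axl, Gas6 and Tyro3. Axl and Gas6 did not differ from each other beyond their counting intervals. The counts are read from the 3′ end and not divided by length, and capture may differ between genes, so the order is one of UMIs.

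**Figure D1:**
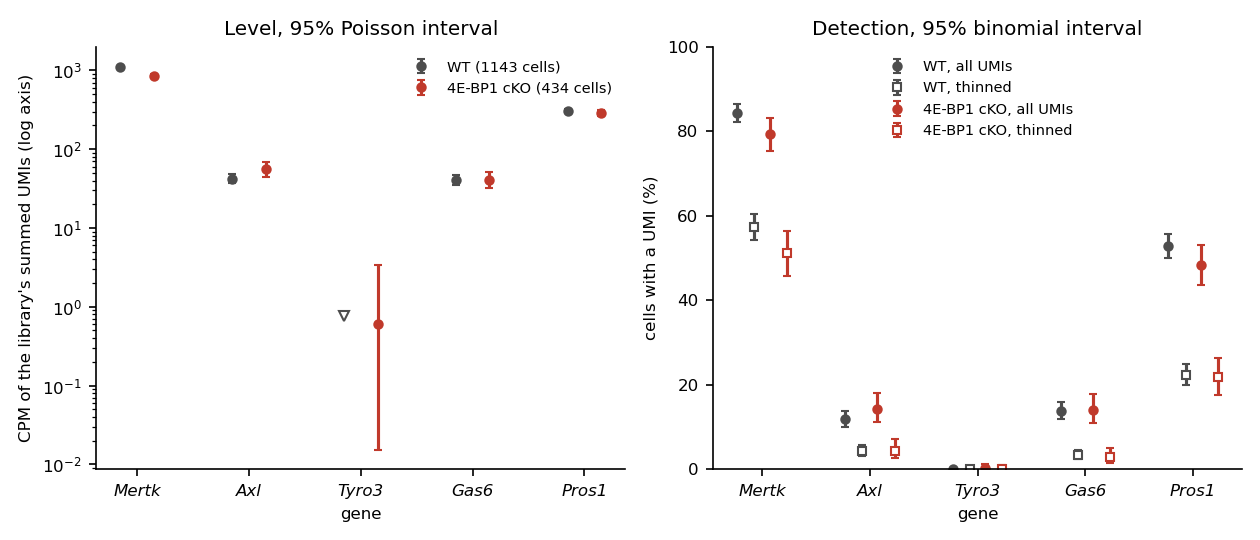
Left, CPM of each member on a log axis with 95% Poisson intervals in the WT (grey) and 4E-BP1 cKO (red) libraries, and right, the percentage of cells with at least 1 UMI with 95% binomial intervals, for all UMIs (filled) and after thinning each cell to 867 UMIs (open). The open triangle is the upper end of the Poisson interval for Tyro3 in the WT library, where it had 0 UMIs, and thinning brings Axl from 11.8% and 14.3% to 4.36% and 4.40% of cells.

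Free RNA from burst cells can leave single UMIs in cells that do not express a gene, and the libraries held too few cells of other types to give the background directly. The markers of other cell types were used as a yardstick, but only for free RNA of those types. They do not measure free RNA of the microglia themselves, so they cannot show whether single UMIs of the members were background. Csf3r, listed for neutrophils, had a UMI in 64.3% of WT cells, while 0 WT cells had at least 3 neutrophil markers. At equal depth the median of 78 such markers was found in 0.0947% of WT cells and 0% of 4E-BP1 cKO cells. Axl and Gas6 were found in more cells than all but 3 of these markers in the WT library (Csf3r, Ighm and Slc1a3), and in the 4E-BP1 cKO library than all but the same 3 for Axl and 4 for Gas6, the fourth being Mbp. Pros1 was exceeded by Csf3r alone and Mertk by none. Of the 203 WT Axl UMIs, 22 were in the 26 cells with markers of another type, and 5 of the 92 4E-BP1 cKO Axl UMIs were in the 4 such cells. Axl without those cells is given with the comparison of the libraries.

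Receptor and ligand transcripts occurred in the same cells. A receptor and a ligand were both found in 52.1% of WT cells (49.1 to 55.0%) and 47.2% of 4E-BP1 cKO cells (42.5 to 52.1%), and at equal depth in 14.9% (12.8 to 17.2%) and 15.4% (11.8 to 19.5%). Mertk and Axl were both found in 120 of the 135 WT cells with Axl, and likewise in 56 of 62 such 4E-BP1 cKO cells. Over all UMIs Mertk was found in 88.9% (82.3 to 93.6%) of WT cells with an Axl UMI and 83.8% (81.4 to 86.1%) of those without. These intervals overlapped, and the cells with Axl were deeper, at a median of 5008 against 2901 UMIs. At equal depth Mertk was found in 52.2% (36.9 to 67.1%) of WT cells with Axl and 57.6% (54.5 to 60.7%) of those without. Of the 6 pairs of detected members, each in 2 libraries, 1 had intervals that did not overlap at equal depth. In the 4E-BP1 cKO library Pros1 was found in 27.96% (21.6 to 35.0%) of cells with Mertk and 15.2% (10.2 to 21.3%) of cells without, whereas in the WT library the values were 22.6% (19.3 to 26.1%) and 22.0% (18.3 to 26.1%).

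Measured as a level, Mertk was lower in cells that had an Axl UMI. In WT cells Mertk was at 848 CPM (788 to 911) in the 135 cells with Axl and 1157 CPM (1123 to 1191) in the 1008 without. In the 4E-BP1 cKO library it was at 598 CPM (529 to 674) in the 62 cells with Axl and 945 CPM (891 to 1001) in the 372 without. The intervals did not overlap in either library. The cells with Axl were also deeper. Their median UMIs were 5008 against 2901 in the WT and 6695.5 against 2307 in the 4E-BP1 cKO library. They had more ribosomal protein UMIs, a median of 3.503% against 2.20% in the WT and 5.19% against 3.09% in the 4E-BP1 cKO library. The part of depth and of the ribosomal protein share in the Mertk levels was not tested. At equal depth Mertk was found in 8 of 16 4E-BP1 cKO cells with Axl and in 178 of 348 without. The intervals of these shares overlapped (24.7 to 75.3% and 45.8 to 56.5%), as did those given above for WT cells. Pros1 was at 268 CPM (235 to 305) with and 314 CPM (297 to 333) without Axl in WT cells, and at 225 CPM (184 to 273) and 313 CPM (282 to 346) in 4E-BP1 cKO cells.

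How the members were spread over cell states was described in 9 clusters, numbered by size and not named. Clusters are built from the cells' own expression, the members included, so that levels across them are a description. Mertk was highest in cluster 1, at 1859 CPM (1757 to 1965) in WT and 1521 CPM (1332 to 1730.1) in 4E-BP1 cKO cells, and clusters 3, 7 and 8 followed in this order in both libraries. Over the cells of both libraries, clusters 1, 7 and 8 had low median shares of ribosomal protein UMIs, 1.19%, 1.39% and 1.22%. The first leading genes of cluster 1 were Gm35188, Gm43221 and Tmcc3os. Cluster 3 had a median share of 5.06%, however, and cluster 2 had 1.28% with Mertk at 895 CPM in the summed libraries. The part of this share in the order of the clusters was not tested. Mertk was lowest in clusters 6 and 9. In cluster 6, whose leading genes include the metallothioneins Mt1 and Mt2 and the chemokine Cxcl2, Mertk was at 519 CPM (473 to 567) in WT and 437 CPM (377 to 505) in 4E-BP1 cKO cells. In cluster 9, led by Gm1673 and Apoe and with a median ribosomal protein share of 19.5% in WT and 20.1% in 4E-BP1 cKO cells, it was at 376 CPM (283 to 490) and 539 CPM (396 to 717). The highest cluster exceeded the lowest 4.94-fold (3.77 to 6.60) in the WT and 3.48-fold (2.85 to 4.24) in the 4E-BP1 cKO library. With both libraries summed, 5 of the 8 pairs of neighbours in the order did not differ beyond the counting interval. The steps that did were from cluster 1 to 3, from 8 to 4 and from 5 to 6.

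Axl was low in cluster 3, where Mertk was second highest, at 18.8 CPM (11.1 to 29.7) in WT and 12.2 CPM (2.52 to 35.7) in 4E-BP1 cKO cells. This was its lowest cluster in the WT library, whereas in the 4E-BP1 cKO library it had 0 UMIs in cluster 7. It was high in cluster 6, at 62.4 CPM (47.4 to 80.7) and 80.4 CPM (55.7 to 112). There an Axl UMI was found in 31.3% of the 99 WT and 37.0% of the 54 4E-BP1 cKO cells. These were the deepest cells, at a median of 8926 and 7696 UMIs, and shares depend on depth. In WT cluster 2, at a median of 2334 UMIs, the share was 16.7% at 79.1 CPM. Of the Axl UMIs of cluster 6, 10 of 58 and 5 of 34 were in cells with markers of another type. Without those cells the levels were 58.5 and 70.7 CPM. In WT cells cluster 9 was highest, at 116 CPM (67.8 to 186), but 7 of its 17 Axl UMIs came from the 1 cell of that cluster with markers of another type, and without it the level was 79.2 CPM. In the 4E-BP1 cKO cells of cluster 9, Axl had only 3 UMIs, or 34.4 CPM (7.10 to 100.6), and the highest level in that library was in cluster 8, at 90.2 CPM (24.6 to 231) from 4 UMIs. Cluster 1, the highest for Mertk in both libraries, was at 25.4 CPM (14.8 to 40.7) for Axl in WT cells, above clusters 5 and 3 alone, but at 65.6 CPM (31.4 to 121) in 4E-BP1 cKO cells, below clusters 8 and 6 alone. None of the 8 pairs of neighbours in the order of the summed libraries differed beyond counting error, but clusters farther apart did. Clusters 2 and 6, at 71.7 CPM (53.8 to 93.5) and 68.0 CPM (54.8 to 83.4) in the summed libraries, had intervals above those of clusters 5 (24.4 to 46.98), 1 (21.7 to 47.8), 7 (10.98 to 45.6) and 3 (10.8 to 26.6). The 4E-BP1 cKO library alone did not show this for clusters 1 and 5. There cluster 2, at 55.4 CPM (29.5 to 94.7), was below cluster 1 and below cluster 5, at 61.0 CPM (37.3 to 94.2). Of these clusters, the 4E-BP1 cKO interval of cluster 6 lay above that of cluster 3 alone.

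Because Axl and Mertk were counted in the same cells, their shares of the UMIs of both can be given without any scaling to the library. Capture may still differ between the genes, so these are shares of UMIs and not of receptor protein. Axl made up 3.71% of the UMIs of the 2 receptors in WT cells (3.22 to 4.24%) and 6.12% in 4E-BP1 cKO cells (4.96 to 7.45%). In cluster 3 its share was 1.30% (0.772 to 2.05%) and 0.855% (0.177 to 2.48%). In cluster 6 it was 10.7% (8.26 to 13.7%) and 15.5% (10.998 to 21.0%). The balance of the receptor UMIs thus differed between clusters 3 and 6 in both libraries, with intervals far apart. Mertk remained the larger part of these UMIs in every cluster of both libraries. The largest Axl share was 23.6% (14.4 to 35.1%), in the WT cells of cluster 9, where 7 of the 17 Axl UMIs came from 1 cell with markers of another type. In the 4E-BP1 cKO cells of that cluster the share was 6.0% (1.25 to 16.5%).

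With both libraries summed, Pros1 ranged from 398 CPM (336 to 467) in cluster 7 to 206 CPM (152 to 273) in cluster 9. None of its 8 neighbour pairs differed beyond counting error, but neighbours in an order by level are the closest pairs by construction. The interval of cluster 7 lay above those of clusters 5 (270 to 335), 4 (186 to 287), 6 (202 to 253) and 9. Within the libraries the highest Pros1 cluster exceeded the lowest 2.61-fold (1.68 to 4.22) in WT cells, where the step from cluster 5 to 6 also lay beyond counting error. In 4E-BP1 cKO cells it did so 3.93-fold (1.45 to 14.9), and the lowest cluster, 8, had 4 Pros1 UMIs. Cluster 7 was the highest only in the WT library, at 429 CPM (359 to 508). In the 4E-BP1 cKO library it was at 241 CPM (135 to 398) from 15 UMIs, above cluster 8 alone, and cluster 1 was highest. In the summed libraries Gas6 ranged from 58.9 CPM (46.0 to 74.3) in cluster 3 to 25.7 CPM (9.44 to 56.0) in cluster 9. Again 0 of 8 neighbour pairs were apart, but the interval of cluster 3 lay above that of cluster 5 (23.0 to 44.9). The highest Gas6 cluster exceeded the lowest 2.29-fold (1.002 to 6.45). The Gas6 share of the ligand UMIs was 11.8% (10.3 to 13.4%) in WT and 12.4% (9.77 to 15.5%) in 4E-BP1 cKO cells.

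**Figure D2:**
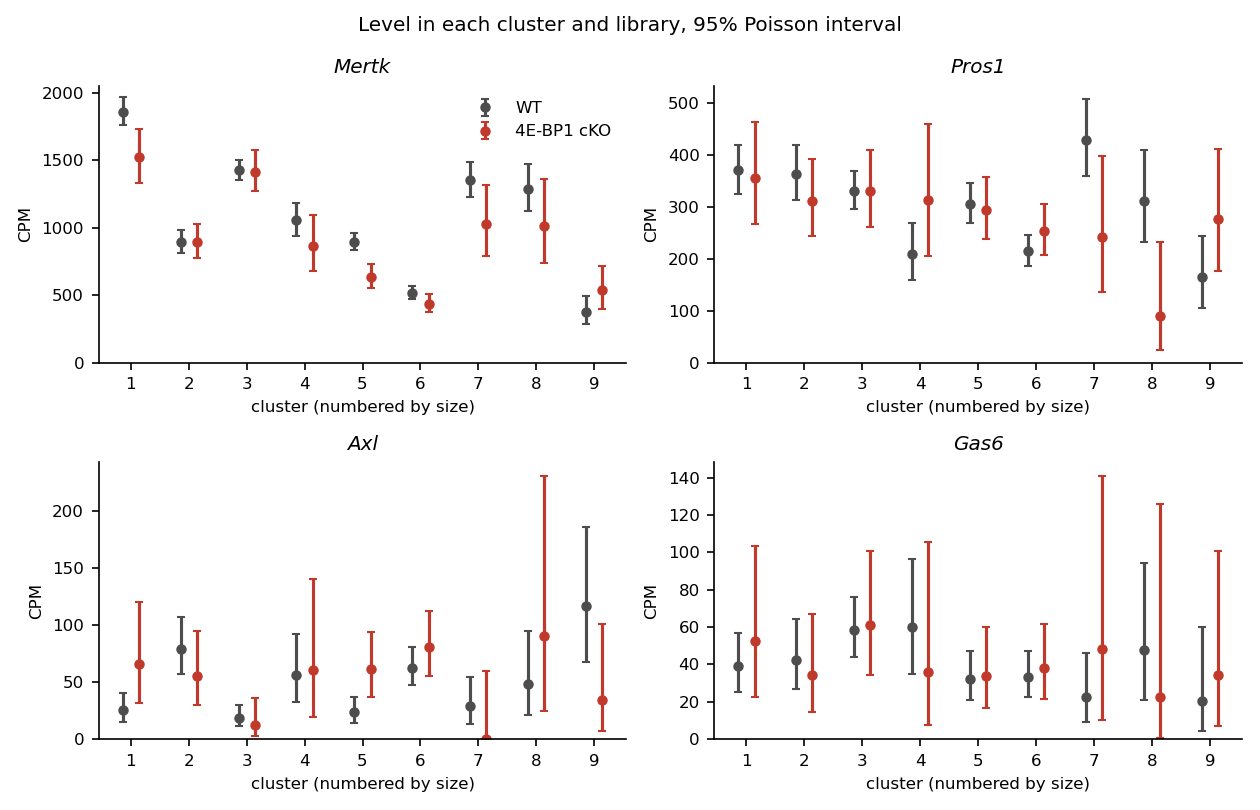
CPM of the 4 detected members in each of the 9 clusters, with 95% Poisson intervals, in the WT (grey) and 4E-BP1 cKO (red) libraries. Mertk falls from 1859 and 1521 CPM in cluster 1 to 519 and 437 CPM in cluster 6, whereas Axl is at 18.8 and 12.2 CPM in cluster 3 and reaches 62.4 and 80.4 CPM in cluster 6.

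Over the 17 sums of a cluster and library with at least 20 cells, the log2 levels of Mertk and Axl had a Pearson correlation of -0.52, and those of Mertk with Gas6 and Pros1 0.48 and 0.44. The sums share clusters and libraries and are not independent. Of 4847 genes with at least 200 UMIs, those most like Mertk included Lims1 (0.97), an adaptor at integrin adhesions, the kinase Vrk2 (0.96), the Rap exchange factor Rapgef5 (0.95) and Pag1 (0.94), a membrane adaptor of Src-family kinases. Those most like Axl were Rmi1 (0.86), of the complex that resolves recombined DNA, Plau (0.84), which encodes urokinase, M6pr (0.84), a mannose 6-phosphate receptor, Cxcl16 (0.83), a chemokine and scavenger receptor, and Nhp2 (0.83), a protein of small nucleolar ribonucleoproteins. These values are the highest among 4847 genes. Some Axl sums held few UMIs, such as 0, 3 and 4 in the 4E-BP1 cKO cells of clusters 7, 3 and 8.

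The cells fell along a broad range of ribosomal protein UMIs, and the members were compared between cells under 3% and cells of at least 3%. The cells under 3% were 56.5% of the WT and 47.0% of the 4E-BP1 cKO cells, and 103 cells of both libraries lay between 2.5 and 3.5%. Mertk was higher in the cells under 3%, at 1416 against 908 CPM in the WT library, a ratio of 1.56 (1.48 to 1.65), and at 1336 against 636 CPM in the 4E-BP1 cKO library, a ratio of 2.10 (1.89 to 2.33). Pros1 was higher in the same cells, 1.46-fold (1.31 to 1.61) and 1.32-fold (1.09 to 1.59). Axl gave 1.12 (0.832 to 1.49) and 0.848 (0.513 to 1.36) and Gas6 1.06 (0.789 to 1.43) and 1.24 (0.721 to 2.08), with intervals that held 1. A gene was called at 1.5-fold or more with at least 20 UMIs. Mertk was thus called higher in both libraries and Pros1, Axl and Gas6 in neither, against 21.9% of 11069 genes tested called higher and 21.7% called lower in the WT library, and 26.3% and 24.6% of 7891 genes in the 4E-BP1 cKO library. The WT call of Mertk was lost when ribosomal protein and mitochondrial genes were left out of the total, at a ratio of 1.46, and at equal depth, at 1.35.

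In finer steps, WT Mertk was between 1244 and 1535 CPM below 3%. From 3 to 5% it was at 1203 CPM (1131 to 1278), an interval that overlapped that of 1.5 to 3% (1157 to 1336). WT Mertk then fell to 927 CPM (878 to 979) at 5 to 10% and 508 CPM (457 to 563) at 10% and above. In the 4E-BP1 cKO library it was at 1408 CPM (1253 to 1577) under 1%, 787 CPM (653 to 940.2) from 1 to 1.5% and 1829 CPM (1612 to 2066) from 1.5 to 3%, and then fell to 528 CPM (454 to 610.02) at 10% and above. Axl was at 65.0 CPM (44.5 to 91.8) in WT cells under 1%, between 25.5 and 52.3 CPM in the steps between, and 73.8 CPM (55.1 to 96.8) at 10% and above. In the 4E-BP1 cKO library Axl was at 70.4 CPM (39.4 to 116) and 71.7 CPM (46.4 to 106) at the same ends. Mertk thus declined with the ribosomal protein share, unevenly in the 4E-BP1 cKO library, and Axl was as high at one end as at the other.

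**Figure D3:**
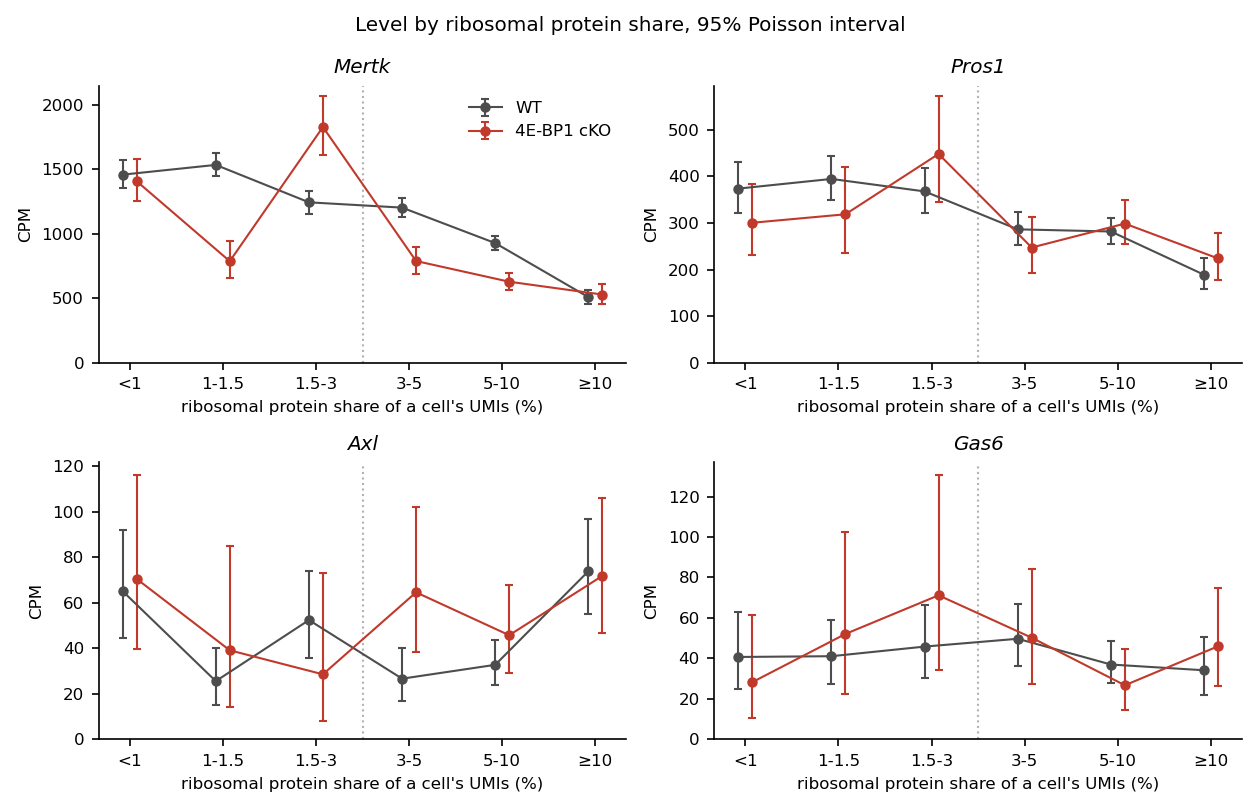
CPM of the 4 detected members in 6 classes of cells by the share of ribosomal protein UMIs, with 95% Poisson intervals, in the WT (grey) and 4E-BP1 cKO (red) libraries, the dotted line marking 3%. Mertk ends at 508 and 528 CPM in the cells of at least 10%, and Axl is at 65.0 and 70.4 CPM in the cells under 1% and at 73.8 and 71.7 CPM in those of at least 10%.

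The same contrast moved with the span of a gene. In the WT library the median log2 ratio of cells under 3% over cells of at least 3% rose from -0.63 for genes under 10 kb to 0.53 for genes of at least 100 kb, and in the 4E-BP1 cKO library from -0.83 to 0.68. Mertk, which spans 104 kb, was above 66.1% of the genes of at least 100 kb in the WT and 83.2% in the 4E-BP1 cKO library. Pros1, which spans 75.04 kb, was above 70.8% and 47.5% of the genes of 50 to 100 kb. Axl and Gas6 span 32.4 and 29.2 kb, in the class whose median was 0.15 and 0.17. The nuclear RNA Malat1 was also higher in the cells under 3%, 1.72-fold and 1.54-fold. No source used here says whether reads in introns were counted, and the part of span in the Mertk and Pros1 values was not tested. A cell under 3% held fewer UMIs (a median of 2347 against 5542 in the WT library), and since CPM are relative, less of other transcripts in a cell cannot be told apart from more Mertk.

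**Figure D4:**
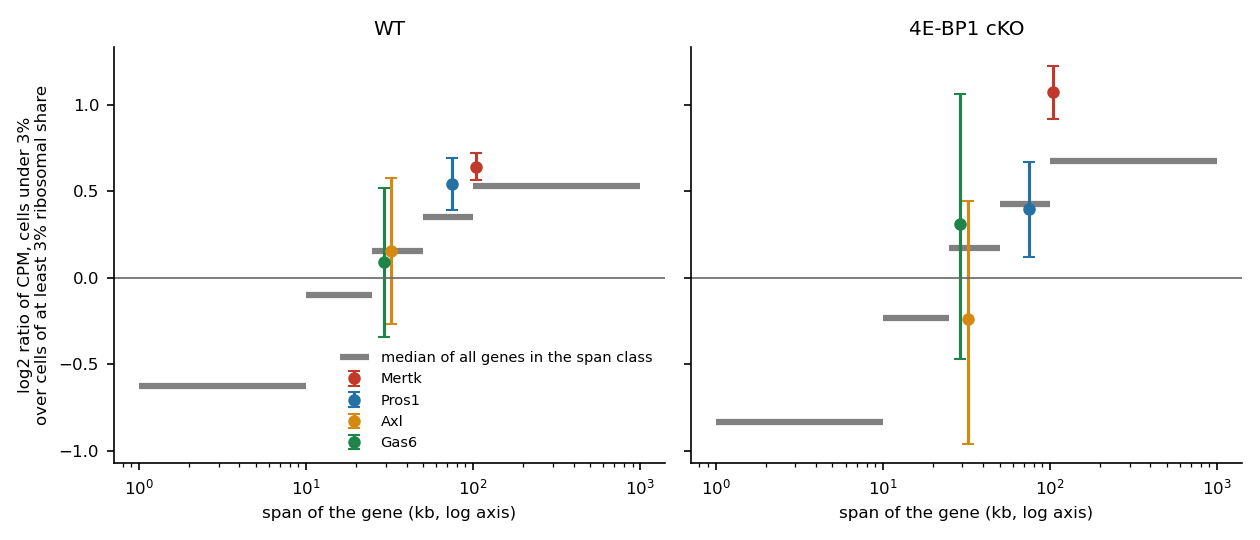
Log2 ratio of CPM in cells under 3% over cells of at least 3% ribosomal protein share, against the span of the gene in kb (log axis), for the 4 detected members with 95% counting intervals in each library. Grey bars are the medians of all tested genes in 5 span classes, which rise from -0.63 to 0.53 in WT and from -0.83 to 0.68 in 4E-BP1 cKO cells, and Mertk lies above the bar of its class in both.

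Early response and heat shock genes rise when tissue is digested, and 19 such genes were summed in each cell. Among the cells of at least 3% ribosomal protein share, those with more than 2.75% of their UMIs in these genes (the median of these cells) had less Mertk, at 830 against 979 CPM in the WT library, a ratio of 0.848 (0.785 to 0.915), and 557 against 789 CPM in the 4E-BP1 cKO library, a ratio of 0.706 (0.608 to 0.820). For Axl the ratios were 1.02 (0.704 to 1.49) and 1.23 (0.713 to 2.18), for Gas6 1.02 (0.701 to 1.49) and 0.913 (0.477 to 1.81) and for Pros1 1.09 (0.949 to 1.26) and 1.26 (0.980 to 1.63), with intervals that held 1. Mertk was therefore the only detected member whose interval excluded 1 in this split. The 4E-BP1 cKO cells of at least 3% had a higher median share of these genes (3.08%) than the WT cells (2.56%), and its part in the difference of Mertk between the libraries was not tested.

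Between the libraries, Mertk was lower in 4E-BP1 cKO than in WT cells, with a ratio of 0.773 (0.728 to 0.820). Of the 1297 genes with at least 1000 UMIs, 7.25% had a lower ratio than Mertk. Axl was higher, with a ratio of 1.31 (1.01 to 1.68), and 5.83% of the 3550 genes with at least 200 and under 1000 UMIs had a higher one. Gas6 had a ratio of 1.001 (0.748 to 1.33) and Pros1 of 0.945 (0.850 to 1.05). None of the 4 was called at 1.5-fold in either direction, against 5.55% of 11754 genes called higher and 13.3% called lower, and the median log2 ratio of all these genes was -0.06.

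The Axl ratio stayed over 1 under all 12 alternatives, but its size differed between them. It was 1.43 (1.05 to 1.94) in cells of at least 3% ribosomal protein share and 1.09 (0.666 to 1.72) in the other cells. Without the cells that had markers of another type the ratio was 1.33, and with the clusters weighted by their share of the control cells it was 1.18. When every cell counted equally, as the mean of each cell's CPM, it was 1.12, and at equal depth, with 49 WT and 17 4E-BP1 cKO Axl UMIs, it was 1.01 (0.543 to 1.78). The excess of Axl was thus not detectable at equal depth, from these few molecules. Mertk kept a ratio under 1 at equal depth, 0.820 (0.723 to 0.928), from 1150 and 325 UMIs, whereas Pros1 was at 1.08 (0.858 to 1.35) and Gas6 at 0.763 (0.339 to 1.56).

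**Figure D5:**
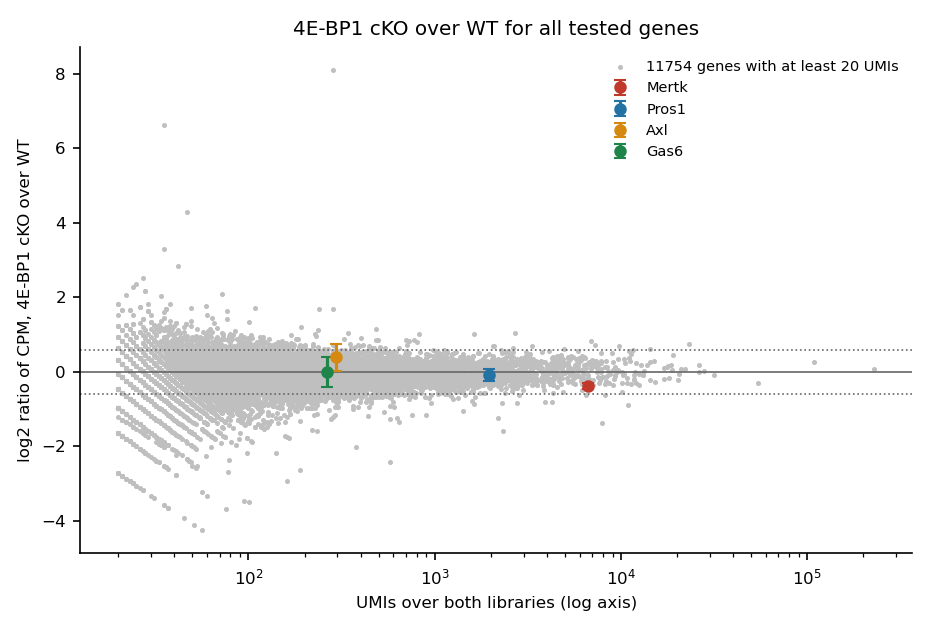
Log2 ratio of CPM, 4E-BP1 cKO over WT, against UMIs over both libraries (log axis) for the 11754 genes with at least 20 UMIs (grey) and for the 4 detected members with 95% counting intervals, dotted lines marking 1.5-fold. Mertk, at a ratio of 0.773, lies below most genes of its abundance, Axl, at 1.31, above most of its own, and all 4 lie between the dotted lines.

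The Mertk difference was not even across cells. In cells of at least 3% ribosomal protein share the 4E-BP1 cKO library had 0.701 (0.645 to 0.761) of the WT level, and in cells under 3% it had 0.944 (0.866 to 1.03), an interval that held 1 and did not overlap the first. Within the 9 clusters the ratio was under 1 in 7, and the interval excluded 1 in clusters 1 (0.818, 0.708 to 0.942), 5 (0.712, 0.607 to 0.831) and 7 (0.761, 0.575 to 0.991). In clusters 2 and 3 the ratios were 1.0001 (0.846 to 1.18) and 0.993 (0.880 to 1.12), and in cluster 9 the ratio was 1.43 (0.9502 to 2.16). Cluster 5 is led by early response and heat shock genes such as Fos and Hspa1a. Weighting the clusters by their share of the control cells gave a ratio of 0.856. Axl was higher in 5 of the 9 clusters, and its interval excluded 1 in clusters 1 (2.58, 1.06 to 5.96, from 17 and 10 UMIs) and 5 (2.59, 1.31 to 5.13, from 19 and 20 UMIs). In clusters 1 and 5 the Mertk interval lay below 1 and the Axl interval above it, but these clusters were picked from 9 by their intervals. The Axl ratio was below 1 in clusters 2 (0.701, 0.344 to 1.33), 3 (0.650, 0.123 to 2.23) and 9 (0.296, 0.0556 to 1.02), with intervals that held 1. In cluster 9 the Mertk ratio was above 1, as given. Axl had 9 WT and 0 4E-BP1 cKO UMIs in cluster 7, where 3 UMIs, the limit set for a count of 0, would be 48.3 CPM in the 25 4E-BP1 cKO cells. Pros1 had intervals under 1 in clusters 7 (0.563, 0.306 to 0.962) and 8 (0.290, 0.0761 to 0.787), the latter from 52 and 4 UMIs, and Gas6 in none.

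The other genes of the pathway were taken as 9 lists with 71 genes, of which 58 had enough UMIs between the libraries. Of these, 7 were higher and 5 lower in the 4E-BP1 cKO library at 1.5-fold, beside the 5.55% and 13.3% of all genes given above, and their median log2 ratio was -0.02. Of the further ligands reported for TAM receptors, Lgals3, which encodes galectin-3, was higher 3.12-fold (1.94 to 5.02), with 37 WT and 40 4E-BP1 cKO UMIs, and Tub and Tulp1 were below the minimum. The enzymes behind the vitamin K-dependent modification of Gas6 and Protein S went separate ways. The carboxylase gene Ggcx was at a ratio of 0.620 (0.362 to 1.01) and the reductase gene Vkorc1l1 at 0.637 (0.454 to 0.877), whereas the reductase gene Vkorc1 was at 1.52 (1.17 to 1.96). The proteases that shed the receptors, Adam10 and Adam17, were at 0.937 (0.840 to 1.04) and 0.919 (0.794 to 1.06), and 0 of the 2 were called.

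Among 14 tested receptors and bridging proteins for apoptotic cells, 1 was higher and 2 were lower. Mfge8, a bridge from phosphatidylserine to integrins, was at 1.73 (0.958 to 3.06), the scavenger receptor Stab2 at 0.555 (0.251 to 1.10) and the lipid receptor Cd300lf at 0.659 (0.264 to 1.45), each from fewer than 100 UMIs and with an interval that held 1. Of 16 engulfment signalling genes, the adaptor Crkl was lower at 0.549 (0.361 to 0.809) and 0 were higher. The study also names Itgb3, Cd44 and Cdc42 with Axl for phagocytosis, as more ribosome-bound in the TRAP experiment on other mice. By mRNA here, Itgb3 was at 0.799 (0.570 to 1.10), Cd44 at 0.799 (0.596 to 1.06) and Cdc42 at 1.11 (1.03 to 1.21), and 0 of the 3 were called.

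Of the 7 tested genes by which TAM receptors restrain innate signalling, the cytokine-signalling suppressors Socs1 and Socs3 were higher, at 1.55 (1.07 to 2.22) and 1.56 (1.44 to 1.69), and 0 were lower. Of 7 tested nuclear receptors and Maf factors, the liver X receptor gene Nr1h2 was higher at 1.85 (1.19 to 2.87) and its partner Rxrb at 1.62 (1.14 to 2.26), while 0 were lower. Of 6 genes that expose or retrieve phosphatidylserine, 0 were called in either direction.

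In the ribosomal protein contrast, 11 of 57 tested pathway genes were higher and 7 lower in WT cells under 3%, beside 21.9% and 21.7% of all genes. In 4E-BP1 cKO cells 13 of 54 were higher and 12 lower, beside 26.3% and 24.6%. The genes lower in WT cells were fewer than the share of all genes, and the other counts were near theirs. The complement genes C1qa, C1qb and C1qc, which tag apoptotic cells, went against Mertk, with ratios of 0.354 (0.338 to 0.370), 0.390 (0.373 to 0.408) and 0.390 (0.371 to 0.410) in the WT library and 0.444 (0.411 to 0.479), 0.407 (0.375 to 0.441) and 0.457 (0.420 to 0.498) in the 4E-BP1 cKO library. Elmo1, which links receptors to Rac, went with Mertk at 1.59 (1.54 to 1.65) and 1.82 (1.71 to 1.94), as did the scavenger receptor Stab1 at 2.11 (1.73 to 2.59) and 1.56 (1.04 to 2.33). Vkorc1, the reductase gene of the vitamin K cycle, was lower at 0.274 (0.172 to 0.421) and 0.277 (0.128 to 0.536), while Ggcx was at 2.73 (1.76 to 4.28) and 0.974 (0.307 to 2.70). Rac2 was lower at 0.409 (0.286 to 0.574) and 0.403 (0.191 to 0.773), and Socs3 at 0.602 (0.539 to 0.670) and 0.459 (0.384 to 0.547). This contrast moved with gene span, as given above. Of all tested genes under 10 kb, 51.5% were called lower in the WT and 59.0% in the 4E-BP1 cKO library. Of genes of at least 100 kb, 42.7% and 56.9% were called higher. The part of span in the values of these pathway genes was not tested.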

How the data were processed

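scRNA-Seq of spinal microglia was available as 1 WT and 1 4E-BP1 cKO library. The authors aligned reads to mm10 with Cell Ranger count (version 8.0.1 per the file headers) and deposited their raw UMI counts for each gene in each barcode. The deposited features and barcodes files hold other values, gene names and barcodes, and no measurement. The annotation release and the use of intronic reads are not given in the sources used here. The smallest barcode held 500 and 501 UMIs, and empty droplets were not analysed here.

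Barcodes with more than 300 genes and under 5% mitochondrial UMIs were kept (1147 of 1216 WT and 445 of 474 4E-BP1 cKO barcodes), as in the study's methods. Scrublet (scanpy 1.11.5) replaced scDblFinder. At 0.8% expected doublets for 1000 barcodes it marked 4 and 11 of them, and under 0.5% of the WT barcodes, so that doublets may remain. The 1143 WT and 434 4E-BP1 cKO cells kept are more than the study states for the same limits with scDblFinder. Cells were clustered in Seurat 5.3.0 (R 4.3.3) with SCTransform, RPCA, 20 principal components and a resolution of 1.4. UMIs were summed per library, cluster or class, scaled to CPM, and compared as plain ratios without a pseudocount. A 0 was set to 3 UMIs in ratios over all genes. Sums and intervals were computed in Python 3.11.15 (scipy 1.17.1) and TMM factors in edgeR 4.0.16. Thinned values are of 1 seeded draw. The 87 ribosomal protein genes were found by symbol. Gene spans were taken from RefSeq (GRCm38.p6) by gene ID or symbol for 94.7% and 96.8% of the genes tested. Named genes are the members, genes of the 9 lists past 1.5-fold with at least 20 UMIs (at most 4 a list, those with the most UMIs), and the 5 genes most like Mertk and Axl by Pearson correlation of log2(CPM + 10). Adam10, Adam17, Itgb3, Cd44, Cdc42, Maf, Malat1, Tmem255b, the markers of other cell types and the leading genes of clusters were named outside this rule. Some genes that the rule names are not reported here. The members and lists were chosen with earlier results of these data known. The function computing ratios was tested on simulated data, and thinning was checked only for giving cells of these data 1 depth.

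Alternatives were a mitochondrial limit of 10%, at least 500 genes, no doublet removal, leaving ribosomal protein and mitochondrial genes out of the total, thinning, removal of cells with markers of other types or of the top cell of each library, TMM factors, weighting clusters, either class of cells alone, cuts at 2 and 4%, other clusterings, at least 50 UMIs and a fold of 2. The mean of each cell's CPM was added after the data had been seen.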

Additional observations from a re-analysis of the deposited data

Results flagged for a closer look

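Axl in cells under 3% over cells of at least 3% ribosomal protein share was above 1 in the WT library (1.12, 0.832 to 1.49) and below 1 in the 4E-BP1 cKO library (0.848, 0.513 to 1.36). It was picked out because the 2 libraries went opposite ways. The difference was not tested, since there is 1 library per genotype, and both intervals held 1. At equal depth the 4E-BP1 cKO ratio was 1.70, from 1 draw that held 17 Axl UMIs and left out 70 cells, and the cause of the change was not tested.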

How the results depend on the processing

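No paired analysis was possible because each genotype had 1 library and no result came from a test across samples. Of 144 alternative values, 127 stayed within the counting interval of the reported value (or within 1.5 times a reported count), 17 moved beyond it, and 0 reversed a direction whose interval excluded 1. Low counts give wide intervals, so for Axl and Gas6 a value could shift far and still lie within. At equal depth the Gas6 ratio between the libraries went from 1.001 to 0.763, within its interval of 0.748 to 1.33. The values below are log2 ratios. Mertk in 4E-BP1 cKO over WT was -0.37 and stayed below 0 under all 12 alternatives, moving to -0.29 at equal depth, -0.22 with clusters weighted by the control cells, -0.24 as the mean of each cell's CPM, -0.083 in cells under 3% ribosomal protein share alone and -0.51 in the other cells alone. Axl moved from 0.39 to 0.0094 and Pros1 from -0.08 to 0.11 at equal depth, and Gas6 stayed within its interval. For cells under over cells of at least 3%, WT Mertk moved from 0.64 to 0.54 without ribosomal protein and mitochondrial genes in the total and to 0.44 at equal depth, WT Pros1 from 0.54 to 0.34 at equal depth, 4E-BP1 cKO Mertk from 1.07 to 0.76 with the cut at 2%, and 4E-BP1 cKO Axl from -0.24 to 0.77 at equal depth. The range of Mertk and of Axl over clusters stayed within its interval in the 3 other clusterings, also when the members were left out. With a fold of 2, the pathway genes called between the libraries fell to 1 higher and 0 lower, and those higher in cells under 3% to 3 in the WT and 0 in the 4E-BP1 cKO library. Without ribosomal protein and mitochondrial genes in the total, the last count was 8 in place of 13, and the median of all genes in that contrast moved from 0.11 to 0.02 in WT and from 0.10 to -0.01 in 4E-BP1 cKO cells. Of all genes, 17.1% were then called higher and 24.5% lower in the WT library, and 21.0% and 27.8% in the 4E-BP1 cKO library. Depth limited Axl and Gas6 most, since each had fewer than 100 UMIs in the 4E-BP1 cKO library, and Tyro3 could not be compared.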
